A study of Mus musculus with 12 samples.

Results

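The genes described here make cholesterol and fatty acids, or control that synthesis. The list, taken by name, holds 34 genes: 18 enzymes of the sterol pathway, 6 genes of its control and of sterol carriage, and 10 fatty acid enzymes. For each gene the probe set with the highest mean signal over the 12 arrays was used. Of the 34 genes, 30 had a probe set annotated to them alone, and 28 exceeded the filter, a log2 signal of 5.101, on at least 2 arrays. That filter is the median of all values, and 11073 of all 17097 genes on the array passed it. The 28 were 14 sterol enzymes, 5 regulators or carriers and 9 fatty acid enzymes. Acat2, Pmvk, Srebf1 and Scd2 had no probe set named for them alone and were not analysed here. Hmgcs1, which makes the precursor of mevalonate, stayed below the filter with log2 signals of 3.90 to 5.03. Lss, the enzyme that closes the sterol rings, was below it on all but 1 array, with signals of 3.74 to 5.45, so neither was tested.

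The arrays hold RNA of interstitial fibroblasts sorted from digested mouse lungs 5 days after surgery, with a GFP reporter of Pdgfra, the gene of PDGF receptor alpha, as the sorting mark. The surgery was a partial pneumonectomy with expression of a dominant-negative form of FGF receptor 2 (PNX-dnFGFR), a partial pneumonectomy without it (PNX), which is followed by regrowth of the remaining lung, or a sham operation (SHAM). From each condition a GFP-bright and a GFP-dim gate of 2000 cells were taken, which gives 6 groups of 2 arrays: bright PNX-dnFGFR, bright PNX, bright SHAM, dim PNX-dnFGFR, dim PNX and dim SHAM. All animals carried the reporter, RNA of all groups was amplified over 25 cycles, and the sources used here give no strain, age or promoter of the dominant-negative receptor, nor whether SHAM animals carry it. The labels call the replicates biological without saying whether 1 array is 1 animal or a pool, so p-values reflect only how these samples vary. The 2 subsets may come from the same animals but were treated as independent, which can make p-values too small where both subsets are combined.

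The labelled cell type was checked against marker genes. Of 8 fibroblast markers 6 were higher and 2 lower in bright than in dim arrays by limma, beside 28.5% and 19.3% of all genes. The collagen gene Col1a1 had log2 signals of 12.29 to 12.46 on bright and 11.82 to 12.12 on dim arrays. Lum, a matrix proteoglycan gene, had 8.21 to 8.93 on bright arrays and was below the filter on all dim arrays, at 2.34 to 3.06. Dcn, another, was higher in bright arrays by 5.05 ± 0.49 and the receptor gene Pdgfrb by 3.23 ± 0.14, while Tcf21, a transcription factor of lipid-storing fibroblasts, was lower by -2.71 ± 0.17. Pdgfra had 4.84 to 5.54 on the arrays labelled bright and 6.66 to 7.13 on those labelled dim, which goes against the labels, so bright and dim below mean the arrays so labelled. Sftpc, the surfactant gene that defines alveolar type 2 epithelium, had 11.36 to 12.43 on all arrays. Of 9 type 2 markers tested, 0 differed between bright and dim by limma. Of the others tested, 2 of 11 macrophage, 3 of 6 endothelial, 3 of 6 mesothelial and 0 of 1 adipocyte markers did. Adipoq and Lep, which define fat cells, were below the filter on all arrays. In bulk samples a smaller number of cells of a type and less RNA per cell cannot be told apart.

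Cholesterol is built from acetyl-CoA through mevalonate, isoprenoids, squalene and lanosterol, and a last set of enzymes reshapes lanosterol into cholesterol. SREBP-2 (gene Srebf2) drives the sterol enzymes and SREBP-1 the fatty acid enzymes. The escort protein SCAP carries both out of the endoplasmic reticulum when sterols are low, and the INSIG proteins hold them back when sterols are high. Fatty acid synthesis starts from cytosolic acetyl-CoA, and elongases and desaturases then lengthen and desaturate the product. In the lung, lipid-storing fibroblasts lie beside type 2 cells, which make the lipids of surfactant and are themselves rich in lipogenic enzymes.

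To show what lies in front of these genes, the promoter windows (250 bases before to 50 after the gene start, GRCm38.p6, RefSeq) were read for 4 of the members that passed the test in the most comparisons. For Dhcr7, which has 3 windows, the window with the most motif matches is given. All are written 5′ to 3′ on the gene's strand, and capitals mark matches, on either strand, to the motifs CCAAT (the NF-Y box), GGGCGG (the Sp1 box) or CACGTG (the E-box).
Dhcr7, chr7:143829964-143830263, plus strand: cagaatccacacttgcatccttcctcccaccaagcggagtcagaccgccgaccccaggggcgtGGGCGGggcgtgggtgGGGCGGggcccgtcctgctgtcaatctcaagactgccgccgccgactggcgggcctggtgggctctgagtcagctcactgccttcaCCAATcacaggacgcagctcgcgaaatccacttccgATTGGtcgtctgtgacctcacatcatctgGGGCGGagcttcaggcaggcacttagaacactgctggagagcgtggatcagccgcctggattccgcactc
Sc5d, chr9:42264251-42264550, minus strand: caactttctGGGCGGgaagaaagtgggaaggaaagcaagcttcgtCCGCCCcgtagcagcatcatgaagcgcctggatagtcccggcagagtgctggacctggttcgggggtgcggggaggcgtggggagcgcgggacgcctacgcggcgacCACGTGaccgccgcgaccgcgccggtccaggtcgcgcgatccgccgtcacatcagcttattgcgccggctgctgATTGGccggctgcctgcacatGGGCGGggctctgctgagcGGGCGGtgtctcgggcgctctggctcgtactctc
Cyp51, chr5:4104648-4104947, minus strand: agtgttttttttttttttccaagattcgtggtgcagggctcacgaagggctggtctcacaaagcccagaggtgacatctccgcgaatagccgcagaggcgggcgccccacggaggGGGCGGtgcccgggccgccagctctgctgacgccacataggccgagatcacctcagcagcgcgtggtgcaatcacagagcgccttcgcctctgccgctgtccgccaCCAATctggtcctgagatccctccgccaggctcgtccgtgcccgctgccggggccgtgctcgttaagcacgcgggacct
Elovl6, chr3:129532136-129532435, plus strand: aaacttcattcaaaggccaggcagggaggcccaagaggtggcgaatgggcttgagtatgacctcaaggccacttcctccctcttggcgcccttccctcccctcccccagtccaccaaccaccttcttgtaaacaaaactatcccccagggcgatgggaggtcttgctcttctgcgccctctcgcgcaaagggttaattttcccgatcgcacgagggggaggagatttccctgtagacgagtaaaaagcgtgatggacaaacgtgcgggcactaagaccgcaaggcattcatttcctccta
The Dhcr7 window held 2 CCAAT and 3 GGGCGG matches, the Sc5d window 1 CCAAT, 4 GGGCGG and 1 CACGTG match, and the Cyp51 window 1 CCAAT and 1 GGGCGG match. No match overlapped another in these windows. The Elovl6 window held none of the motifs searched.

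A form of the sterol regulatory element, TCACNCCAC, to which SREBPs bind, was searched as well on both strands. Among the 27 members with a window it was found only in front of Hmgcs1, where it starts at position -137 from the gene start:
Hmgcs1, chr13:119690204-119690232, plus strand: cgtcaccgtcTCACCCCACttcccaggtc
The capitals mark the match. Of all 32851 windows in the table, 1.24% held this motif. CCAAT was in 23 of the 35 windows of members and in 37.4% of all windows, GGGCGG in 26 of 35 and 35.7%, and CACGTG in 7 of 35 and 7.15%. A match describes letters in this window and is not a tested binding site.

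**Figure D1:**
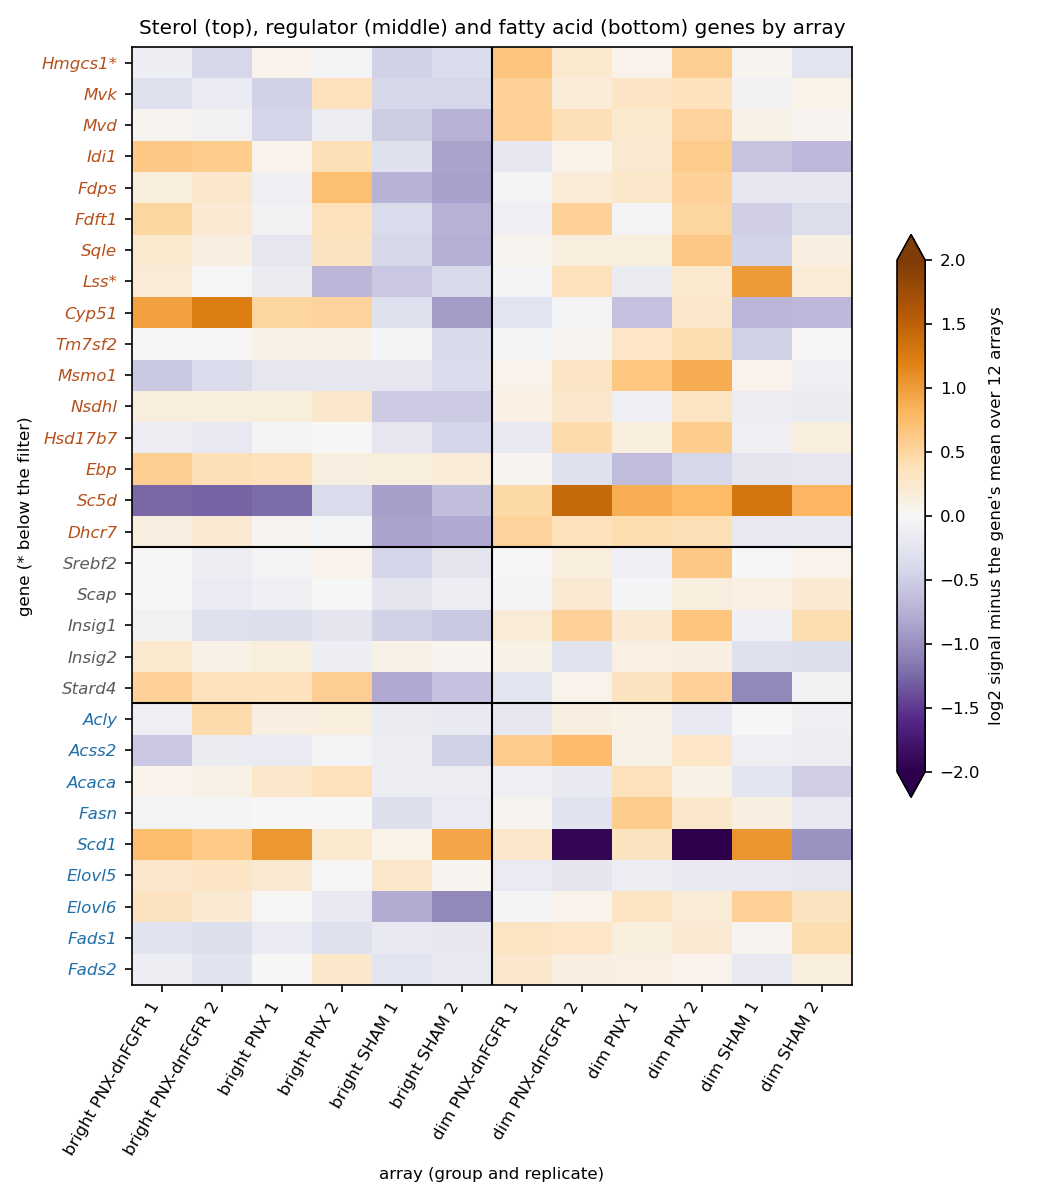
Log2 signal of the 30 members with a named probe set (rows, in pathway order) on the 12 arrays (columns), shown as the difference from each gene's mean over the arrays. Sc5d separates bright from dim columns, Dhcr7, Fdps and Nsdhl are lowest in the bright SHAM columns, and Scd1 is lowest in dim PNX replicate 2 (5.74) and dim PNX-dnFGFR replicate 2 (6.22).

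The first comparison was between the bright and dim subsets. As the mean over the 3 conditions, 9 of the 28 members tested were lower in bright arrays and 3 were higher (limma, adjusted p below 0.05). The largest difference that passed was that of Sc5d, the desaturase that acts late in cholesterol synthesis, which was 3.68-fold lower in bright arrays. Of all 11073 genes, 19.3% were lower and 28.5% higher in this comparison. The median log2 difference, bright minus dim, was -0.18 over the members and 0.05 over all genes tested. Of the 14 sterol enzymes 5 were lower and 2 higher, with a median of -0.20. Of the 5 regulators 1 was lower and 0 higher, with a median of -0.21, and of the 9 fatty acid enzymes 3 were lower and 1 higher, with a median of -0.18. Within every condition both bright arrays lay below both dim arrays for 7 members and above them for 2, which 13.9% and 20% of all genes did.

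Among the early enzymes, Mvk and Mvd were lower in bright arrays. Mvk, the mevalonate kinase, had log2 signals of 7.30 and 7.42 in bright PNX-dnFGFR, 7.12 and 7.94 in bright PNX and 7.17 and 7.17 in bright SHAM arrays, against 8.12 and 7.77 in dim PNX-dnFGFR, 7.90 and 7.94 in dim PNX and 7.51 and 7.68 in dim SHAM arrays. Its difference of -0.47 ± 0.14 (SE, 6 arrays a side) passed at an adjusted p of 0.021, although bright PNX replicate 2 lay among the dim arrays. Leaving out replicate 1 of bright PNX-dnFGFR (-0.44, adjusted p = 0.053), replicate 1 of dim PNX-dnFGFR (-0.41, 0.054) or replicate 2 of dim SHAM (-0.44, 0.051) ended that call. Mvd, which decarboxylates mevalonate diphosphate, had 5.998 and 5.87 in bright PNX-dnFGFR, 5.51 and 5.82 in bright PNX and 5.43 and 5.20 in bright SHAM arrays, against 6.49 and 6.32, 6.18 and 6.46, and 6.04 and 5.99 in the dim arrays of the same conditions. Bright arrays were below dim arrays in each condition, by -0.61 ± 0.10 (adjusted p = 0.00066), and by -0.38 with its second probe set (0.059).

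The late enzymes, which turn lanosterol into cholesterol, went both ways. Cyp51, the lanosterol demethylase, had 8.85 and 9.11 in bright PNX-dnFGFR, 8.39 and 8.41 in bright PNX and 7.57 and 6.98 in bright SHAM arrays. On dim arrays it had 7.63 and 7.82 in PNX-dnFGFR, 7.29 and 8.15 in PNX and 7.19 and 7.20 in SHAM samples. Bright arrays were higher by 0.67 ± 0.16 (adjusted p = 0.0073), with the subsets apart in PNX-dnFGFR and PNX and overlapping in SHAM. Of its 2 other probe sets, the brighter had a difference of -9e-04, and the dimmer one of 0.44.

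Msmo1, which removes methyl groups of the sterol ring, had 5.40 and 5.57 in bright PNX-dnFGFR, 5.71 and 5.72 in bright PNX and 5.71 and 5.58 in bright SHAM arrays, against 6.01 and 6.24, 6.59 and 6.82, and 6.01 and 5.83 in the dim arrays of those conditions. Bright arrays were lower in each condition, by -0.63 ± 0.09 (adjusted p = 3e-04), but the dimmer probe set of Msmo1 differed by only -0.07. Ebp, a sterol isomerase, was higher in bright arrays by 0.59 ± 0.09 (adjusted p = 0.00067). It had 8.75 and 8.56 in bright PNX-dnFGFR, 8.53 and 8.31 in bright PNX and 8.32 and 8.35 in bright SHAM arrays, against 8.22 and 7.89, 7.52 and 7.76, and 7.94 and 7.95 in the dim arrays. No dim array reached a bright one.

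Sc5d had 7.23 and 7.21 in bright PNX-dnFGFR, 7.26 and 8.12 in bright PNX and 7.60 and 7.85 in bright SHAM arrays. On dim arrays its signals were 8.94 and 9.91 in PNX-dnFGFR, 9.35 and 9.26 in PNX and 9.79 and 9.29 in SHAM samples. The difference was -1.88 ± 0.20 (adjusted p = 6.1e-05), no bright array reached a dim one, and the other 2 probe sets gave -1.89 and -1.44. Dhcr7, the reductase that completes cholesterol, had 8.20 and 8.29 in bright PNX-dnFGFR, 8.10 and 8.02 in bright PNX and 7.21 and 7.26 in bright SHAM arrays, against 8.59 and 8.42, 8.49 and 8.46, and 7.87 and 7.86 in the dim arrays. It was lower in bright arrays in each condition, by -0.43 ± 0.07 (adjusted p = 0.00086), with its lowest signals in SHAM samples of both subsets.

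Of the regulators, only Insig1, whose protein retains SCAP in the endoplasmic reticulum, passed the test between the subsets. It had 7.90 and 7.68 in bright PNX-dnFGFR, 7.66 and 7.74 in bright PNX and 7.51 and 7.44 in bright SHAM arrays, against 8.18 and 8.52, 8.19 and 8.65, and 7.90 and 8.40 in the dim arrays. Bright arrays were lower in each condition, by -0.65 ± 0.12 (adjusted p = 0.0022). Srebf2 itself did not pass, at -0.25 ± 0.12 (adjusted p = 0.12). Its signals were 7.86 and 7.74 in bright PNX-dnFGFR, 7.81 and 7.93 in bright PNX and 7.43 and 7.61 in bright SHAM arrays, against 7.85 and 8.01, 7.76 and 8.48, and 7.85 and 7.92 in the dim arrays, and the subsets overlapped.

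Among the fatty acid enzymes, Acss2, Elovl6 and Fads1 were lower in bright arrays and Elovl5 was higher. Acss2, which makes acetyl-CoA from acetate, had 5.57 and 5.98 in bright PNX-dnFGFR, 5.95 and 6.06 in bright PNX and 5.99 and 5.66 in bright SHAM arrays, against 6.72 and 6.89, 6.23 and 6.41, and 6.01 and 5.99 in the dim arrays. Its difference was -0.51 ± 0.10 (adjusted p = 0.0028), and the dim SHAM arrays lay just above the bright ones. Fads1, a desaturase of polyunsaturated fatty acids, had 9.95 and 9.90 in bright PNX-dnFGFR, 10.06 and 9.93 in bright PNX and 10.04 and 10.01 in bright SHAM arrays, against 10.55 and 10.51, 10.38 and 10.44, and 10.27 and 10.63 in the dim arrays. No bright array reached a dim one, and the difference was -0.48 ± 0.08 (adjusted p = 0.0012). Elovl5, which elongates polyunsaturated fatty acids, had 10.20 and 10.25 in bright PNX-dnFGFR, 10.17 and 9.94 in bright PNX and 10.22 and 10.002 in bright SHAM arrays, against 9.78 and 9.70, 9.82 and 9.77, and 9.78 and 9.73 in the dim arrays. Every bright array was above every dim array, with a difference of 0.37 ± 0.08 (adjusted p = 0.0039).

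The other 16 members did not pass between the subsets on the probe sets used, with log2 differences from -0.35 for Hsd17b7, a reductase of sterol demethylation, to 1.22 for the desaturase gene Scd1. The other, dimmer probe sets of Hsd17b7 had larger differences, -0.70 and -0.76. Summed signals of other cell type markers were set beside this comparison. Over all groups of a subset, their ranges overlapped between bright and dim. The summed signal of the 7 mesothelial markers, as log2, was 10.49 to 11.80 in bright groups and 8.47 to 11.03 in dim groups, that of the 8 endothelial markers was 8.56 to 9.30 in bright and 8.28 to 9.30 in dim groups, and that of the 11 macrophage markers was 9.68 to 10.76 in bright and 10.19 to 11.37 in dim groups. Within single conditions some of these ranges lay apart. In PNX-dnFGFR samples the mesothelial sum was 11.05 to 11.60 in bright and 8.47 to 8.56 in dim arrays. The macrophage sum was 10.41 to 10.76 in bright and 11.25 to 11.37 in dim arrays there. In SHAM samples the endothelial sum was 9.19 to 9.30 in bright and 8.28 to 9.07 in dim arrays. The other ranges of these sums overlapped within conditions. The part of these cell types in the differences was not tested.

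**Figure D2:**
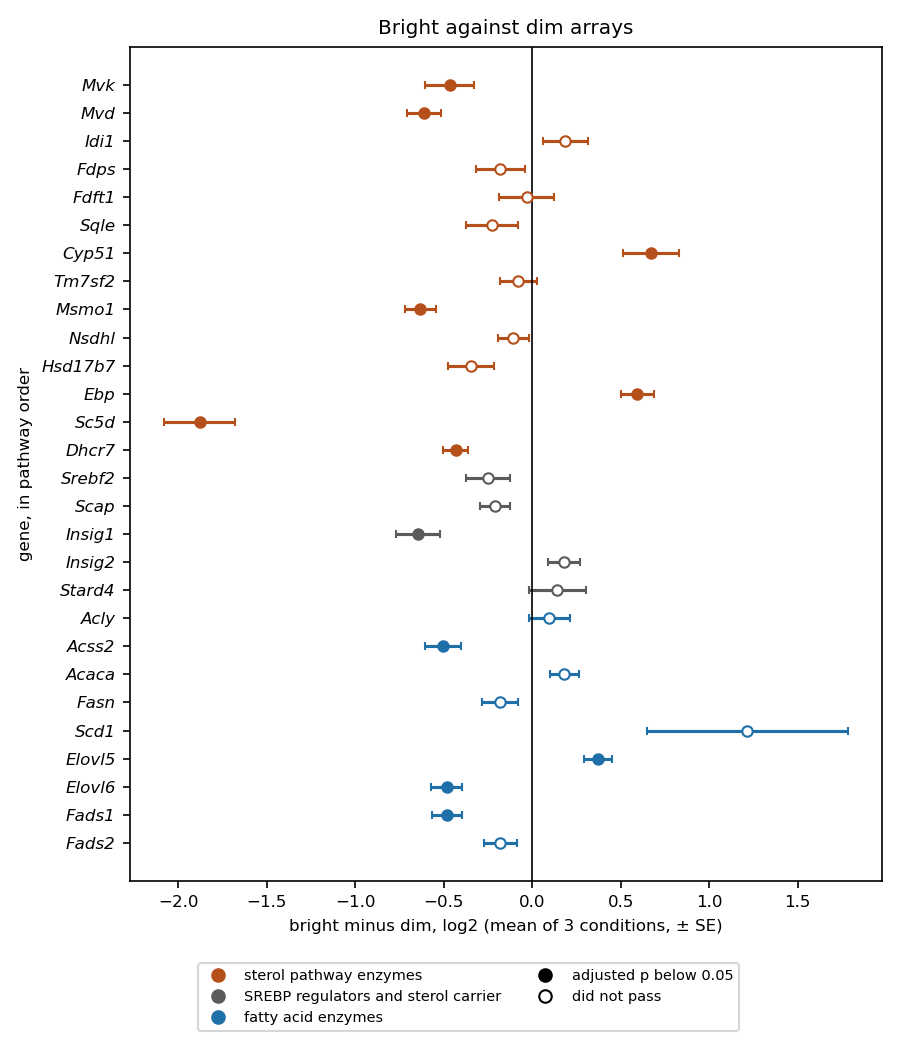
Log2 difference, bright minus dim, of the 28 members tested (points, mean over 3 conditions, bars ± SE, 6 arrays a side), in pathway order and coloured by role. Filled points passed an adjusted p below 0.05: 9 lie left of 0, with Sc5d at -1.88 the farthest, and 3 lie right of it.

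Within single conditions fewer members passed. In PNX-dnFGFR samples 4 were higher in bright arrays and 4 lower, beside 21% and 13.5% of all genes. Those higher were Cyp51 (1.25 ± 0.28, adjusted p = 0.0075), Idi1 (0.67 ± 0.22, 0.041), Ebp (0.60 ± 0.16, 0.018) and Elovl5 (0.49 ± 0.14, 0.022), and those lower were Sc5d (-2.21 ± 0.35, 0.0013), Acss2 (-1.03 ± 0.18, 0.002), Msmo1 (-0.64 ± 0.15, 0.0099) and Fads1 (-0.60 ± 0.14, 0.011). The dimmer probe set of Msmo1 went the other way here, at 0.54 (adjusted p = 0.095), and the second probe sets of Cyp51 (0.40, 0.19) and Idi1 (0.66, 0.19) did not pass. Without bright PNX-dnFGFR replicate 1 or 2, or dim PNX-dnFGFR replicate 2, 4 members passed, and without dim PNX-dnFGFR replicate 1, 5 passed. Sc5d and Acss2 passed in each of these fits. Idi1 passed in none of them and also failed without either dim SHAM array (adjusted p up to 0.19), and Cyp51 failed without bright PNX-dnFGFR replicate 2 (0.055).

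In PNX samples 1 member was higher in bright arrays, Ebp (0.78 ± 0.16, adjusted p = 0.0092), and 5 were lower, beside 11.4% and 7.07% of all genes. The 5 were Sc5d (-1.61 ± 0.35, 0.011), Msmo1 (-0.99 ± 0.15, 0.0019), Insig1 (-0.71 ± 0.22, 0.048), Mvd (-0.66 ± 0.17, 0.022) and Dhcr7 (-0.41 ± 0.12, 0.045). Without bright PNX replicate 1 only Msmo1 passed, and without dim PNX replicate 1 or 2 there were 3. Dhcr7 passed only without dim PNX-dnFGFR replicate 1 or 2 (adjusted p up to 0.16 otherwise), and Insig1 only without dim PNX replicate 1 or either dim SHAM array (up to 0.27 otherwise, with differences of -0.94 to -0.48). With the second probe set Msmo1 had -0.61 (0.097) and Mvd -0.24 (0.59). In SHAM samples 0 members were higher in bright arrays and 4 were lower, beside 11.5% and 7.53% of all genes: Sc5d (-1.82 ± 0.35, 0.0062), Elovl6 (-1.37 ± 0.15, 0.00034), Mvd (-0.69 ± 0.17, 0.018) and Dhcr7 (-0.63 ± 0.12, 0.0071). The call on Mvd ended without bright SHAM replicate 2 or without either dim SHAM array (adjusted p up to 0.12), and with its second probe set (-0.44, 0.29), as did that on Elovl6 (-1.01, 0.056). Sc5d was the one member that passed in all 3 conditions.

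The second comparison asked which of these genes differ after pneumonectomy, PNX against SHAM. As the mean over both subsets, 1 member of 28 rose, Dhcr7, and 0 fell, while 0.0722% of all genes rose and 0.0722% fell. Its log2 signals, given above, were higher on both PNX arrays than on both SHAM arrays in each subset, without overlap. The difference was 0.72 ± 0.09 (1.64-fold, adjusted p = 0.026, 4 arrays a side). The call was lost without any 1 of 9 arrays (adjusted p up to 0.12), and was kept without bright PNX replicate 2 or either dim PNX-dnFGFR array. The difference itself stayed between 0.70 and 0.74.

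Other sterol genes lay higher in PNX arrays without passing the test. The median log2 difference was 0.47 over the 14 sterol enzymes and 0.23 over the 9 fatty acid enzymes, against 0.02 over all genes tested. At an unadjusted p below 0.05, 14 of the 28 members were higher and 0 lower, and 9.36% and 6.78% of all genes were. Those 14 were 10 sterol enzymes, Stard4 and 3 fatty acid enzymes. For 13 members the PNX arrays lay above the SHAM arrays in both subsets without overlap, which 8.67% of all genes did.

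Idi1, the isomerase that readies the isoprenoid units, had 6.48 and 6.42 in bright PNX-dnFGFR, 5.92 and 6.25 in bright PNX and 5.55 and 5.00 in bright SHAM arrays. On dim arrays it had 5.63 and 5.94 in PNX-dnFGFR, 6.07 and 6.45 in PNX and 5.25 and 5.17 in SHAM samples. PNX arrays did not overlap SHAM arrays in either subset, and the difference of 0.93 ± 0.16 did not pass (adjusted p = 0.075). Fdps, which joins isoprenoid units into farnesyl diphosphate, had 7.66 and 7.76 in bright PNX-dnFGFR, 7.39 and 8.23 in bright PNX and 6.76 and 6.63 in bright SHAM arrays. Its dim signals were 7.46 and 7.68 in PNX-dnFGFR, 7.77 and 8.04 in PNX and 7.29 and 7.28 in SHAM samples. Here too both PNX groups lay above SHAM, by 0.87 ± 0.17 (adjusted p = 0.088).

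Nsdhl, which acts in the removal of sterol methyl groups, had 7.72 and 7.71 in bright PNX-dnFGFR, 7.73 and 7.83 in bright PNX and 7.05 and 7.05 in bright SHAM arrays, against 7.68 and 7.82, 7.47 and 7.89, and 7.43 and 7.42 in the dim arrays of those conditions. The difference between PNX and SHAM was 0.49 ± 0.11 (adjusted p = 0.1), and dim PNX replicate 1 lay close to the dim SHAM arrays. Cyp51, whose arrays are given above, differed by 0.82 ± 0.20 (0.11). Fdft1, the squalene synthase, differed by 0.67 ± 0.19 (0.15) and Sqle, the squalene epoxidase, by 0.60 ± 0.18 (0.17). Of the sterol enzymes, 2 had a difference below 0, Ebp at -0.11 ± 0.11 (0.67) and Sc5d at -0.14 ± 0.25 (0.83).

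Stard4, a carrier that moves cholesterol between membranes, had the largest difference of all members on the probe sets used, 1.08 ± 0.20 (adjusted p = 0.083), although the dimmer probe set of Idi1 had 1.58. Its signals were 7.36 and 7.19 in bright PNX-dnFGFR, 7.19 and 7.40 in bright PNX and 6.03 and 6.23 in bright SHAM arrays. On dim arrays they were 6.57 and 6.90 in PNX-dnFGFR, 7.16 and 7.37 in PNX and 5.80 and 6.76 in SHAM samples. The PNX arrays lay above the SHAM arrays in both subsets, and the dim SHAM arrays lay far apart. Without dim SHAM replicate 2, Stard4 was the member that passed and Dhcr7 no longer did. Srebf2 (0.29 ± 0.15, adjusted p = 0.38), Insig1 (0.25 ± 0.15, 0.47), Insig2 (0.19 ± 0.11, 0.45) and Scap (0.01 ± 0.10, 0.97) did not pass, and their PNX and SHAM arrays overlapped in at least 1 subset.

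In the fatty acid branch, Acaca, the carboxylase that commits acetyl-CoA to fatty acids, had 7.91 and 7.94 in bright PNX-dnFGFR, 8.10 and 8.19 in bright PNX and 7.70 and 7.70 in bright SHAM arrays. Its dim signals were 7.73 and 7.65 in PNX-dnFGFR, 8.20 and 7.93 in PNX and 7.58 and 7.35 in SHAM samples. PNX arrays were the highest in both subsets, and the difference from SHAM was 0.52 ± 0.10 (adjusted p = 0.088). Fasn, the synthase that builds palmitate, had 7.51 and 7.52 in bright PNX-dnFGFR, 7.58 and 7.57 in bright PNX and 7.25 and 7.40 in bright SHAM arrays, against 7.60 and 7.29, 8.16 and 7.83, and 7.69 and 7.36 in the dim arrays. It differed by 0.36 ± 0.12 (adjusted p = 0.21), again without overlap between PNX and SHAM. Acly, which cleaves citrate to acetyl-CoA, differed by 0.16 ± 0.14 (0.63), Elovl5 by -0.01 ± 0.10 (0.98) and Fads1 by -0.04 ± 0.10 (0.89).

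In either subset alone 0 members passed PNX against SHAM by limma, while 0.00903% of all genes rose and 0% fell in bright arrays, and 0.0271% rose and 0.0181% fell in dim arrays. At an unadjusted p below 0.05, 10 of 28 members were higher in bright arrays and 10 in dim arrays, and 0 were lower in either. Over all genes that level was passed upwards by 4.69% and downwards by 3.55% in bright arrays, and by 7.04% and 5.11% in dim arrays.

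**Figure D3:**
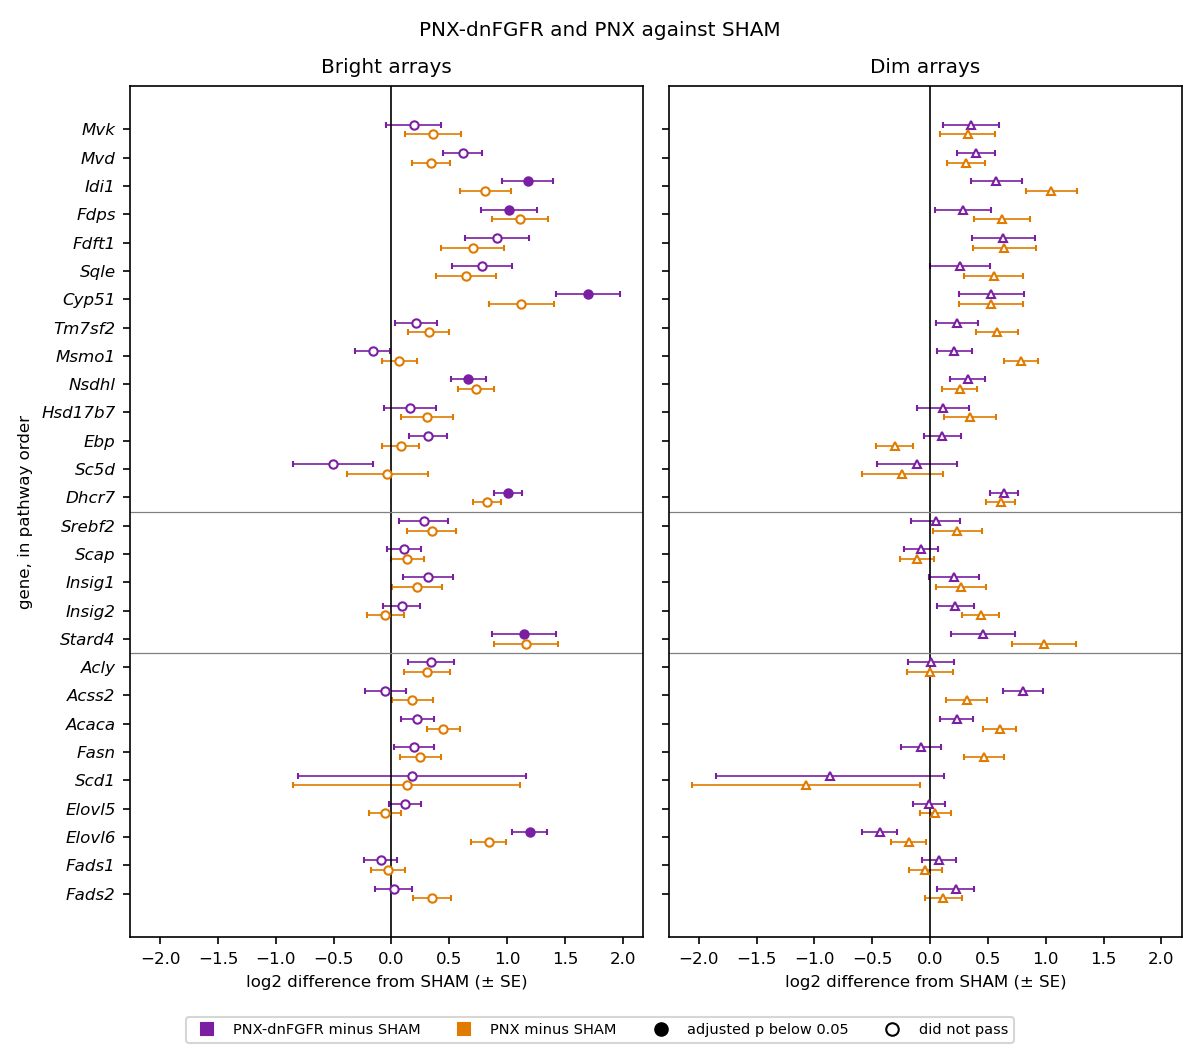
Log2 difference from SHAM of the 28 members tested, in bright arrays (left, circles) and dim arrays (right, triangles), for PNX-dnFGFR (purple) and PNX (orange), bars ± SE, 2 arrays a group. Filled symbols passed an adjusted p below 0.05: 7 members in bright PNX-dnFGFR arrays, with Cyp51 at 1.70 the farthest right, and none in the other 3 comparisons.

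The third comparison set PNX-dnFGFR against PNX, both after the same surgery. By limma 0 members passed in the mean over both subsets, in bright or in dim arrays. Of all genes 0% passed in the mean and in dim arrays, and in bright arrays 0.00903% rose and 0% fell. The median member difference was -0.02 in the mean over both subsets. At an unadjusted p below 0.05, Ebp was higher (0.32 ± 0.11, adjusted p = 0.3), and Msmo1 (-0.40 ± 0.11, 0.21), Acaca (-0.30 ± 0.10, 0.28) and Fasn (-0.30 ± 0.12, 0.36) were lower. Of all genes 5.4% were higher and 7.1% lower at that level. Dhcr7 differed by 0.11 ± 0.09 (0.66) and Nsdhl by 9e-04 ± 0.11 (adjusted p = 1). The dimmer probe set of Msmo1 was not lower in PNX-dnFGFR than in PNX: against SHAM, as the mean over both subsets, it had 0.53 and 0.47. A p that misses the threshold does not show that the groups are alike.

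PNX-dnFGFR was also compared with SHAM. These differences use the same SHAM arrays as those of PNX, so their likeness is no independent result. As the mean over both subsets 3 members rose and 0 fell, while 0.984% of all genes rose and 1.01% fell. Dhcr7 rose by 0.82 ± 0.09 (1.77-fold, adjusted p = 0.0068), Cyp51 by 1.11 ± 0.20 (2.17-fold, 0.038; 0.25 and 0.38 with its second probe set) and Idi1 by 0.88 ± 0.16 (1.83-fold, 0.038). In PNX against SHAM the same genes had 0.72, 0.82 and 0.93. The median was 0.50 over the sterol enzymes, 0.12 over the fatty acid enzymes and 0.01 over all genes. Without bright PNX replicate 1 or 2, 6 members passed. Dhcr7 passed without any 1 array (adjusted p up to 0.049). Cyp51 failed without any 1 of the 4 PNX-dnFGFR or 4 SHAM arrays (up to 0.14). Idi1 had 1.17 with its second probe set (adjusted p = 0.051) and failed without either dim PNX array, any PNX-dnFGFR array, bright SHAM replicate 2 or either dim SHAM array (up to 0.14).

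In bright arrays alone 7 members were higher in PNX-dnFGFR than in SHAM and 0 lower, while 2.6% of all genes were higher and 2.6% lower. They were Cyp51 (1.70 ± 0.28, 3.25-fold, adjusted p = 0.017), Elovl6 (1.19 ± 0.15, 2.29-fold, 0.0095), Idi1 (1.18 ± 0.22, 2.27-fold, 0.024), Stard4 (1.14 ± 0.28, 2.21-fold, 0.047), Fdps (1.01 ± 0.24, 2.02-fold, 0.046), Dhcr7 (1.01 ± 0.12, 2.01-fold, 0.0085) and Nsdhl (0.66 ± 0.15, 1.59-fold, 0.043). With the second probe set Cyp51 had 0.49 (adjusted p = 0.23) and Elovl6 0.54 (0.36), while Idi1 and Stard4 passed. Dhcr7, Fdps and Nsdhl had only 1 named probe set each, so their calls could not be checked in this way. For each of the 7, both bright PNX-dnFGFR arrays lay above both bright SHAM arrays, and 20 of the 28 members had this pattern, beside 32% of all genes. Without bright SHAM replicate 2 none of the 7 passed. Without bright PNX-dnFGFR replicate 1 or 2, 2 did, Dhcr7 and Elovl6, and 4 did without bright SHAM replicate 1 or either dim PNX-dnFGFR array. In the last 3 cases they were Cyp51, Dhcr7, Elovl6 and Idi1. Arrays outside this comparison mattered as well: Fdps and Stard4 failed without either dim PNX array, and Fdps and Nsdhl without either dim SHAM array. With any 1 array left out the differences were 0.95 to 1.08 for Fdps, 1.05 to 1.24 for Stard4 and 0.66 to 0.67 for Nsdhl.

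In bright PNX against bright SHAM, where 0 passed, these 7 genes differed by 1.12, 0.84, 0.81, 1.17, 1.11, 0.82 and 0.73, in the order above. In dim arrays 0 members passed PNX-dnFGFR against SHAM by limma, beside 0.00903% of all genes in each direction, and 5 were higher and 1 lower at an unadjusted p below 0.05, as were 5.06% and 4.46% of all genes. The largest of these dim differences was that of Acss2, 0.80 ± 0.18 (adjusted p = 0.26), and that of Dhcr7 was 0.64 ± 0.12 (0.19).

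Summed signals of other cell type markers were set beside this comparison of bright arrays as well. The log2 of the summed signal of the 10 type 2 markers was 11.94 to 12.05 in bright PNX-dnFGFR and 12.36 to 12.74 in bright SHAM arrays, with 0 of 9 past the test. That of the 8 endothelial markers was 8.56 to 9.03 in bright PNX-dnFGFR and 9.19 to 9.30 in bright SHAM arrays. For the 7 mesothelial markers it was 11.05 to 11.60 in bright PNX-dnFGFR and 10.60 to 11.003 in bright SHAM arrays, and for the 11 macrophage markers 10.41 to 10.76 and 9.94 to 10.49. One macrophage marker, Cd14, was higher by 2.15 ± 0.49 (adjusted p = 0.042). Their part in the sterol gene differences was not tested.

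**Figure D4:**
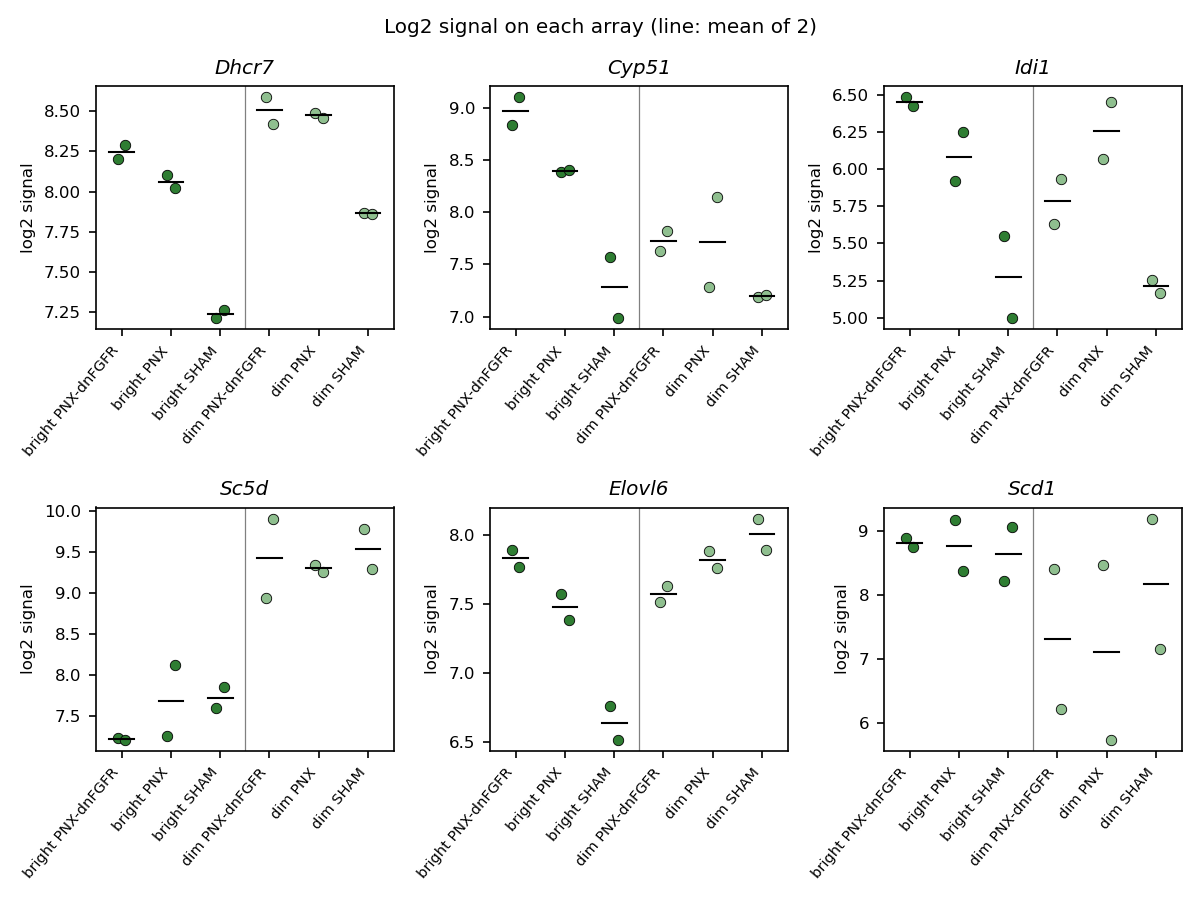
Log2 signal of 6 members on each array (points, 2 arrays a group) with the group mean (line), in bright (dark) and dim (light) groups. Within each subset Dhcr7, Cyp51 and Idi1 are lowest in SHAM, Sc5d separates bright from dim, Elovl6 is lowest in bright SHAM (6.76 and 6.52), and Scd1 splits between the 2 arrays of each dim group.

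Elovl6, which elongates palmitate to stearate, was the one member whose difference from SHAM itself differed between bright and dim. It had 7.90 and 7.77 in bright PNX-dnFGFR, 7.58 and 7.39 in bright PNX and 6.76 and 6.52 in bright SHAM arrays. On dim arrays it had 7.52 and 7.63 in PNX-dnFGFR, 7.89 and 7.76 in PNX and 8.12 and 7.89 in SHAM samples. The order of the conditions was thus PNX-dnFGFR, PNX, SHAM from high to low in bright arrays and the reverse in dim arrays, where PNX and SHAM differed by little between their nearest arrays. PNX-dnFGFR minus SHAM was 1.19 ± 0.15 in bright arrays (adjusted p = 0.0095) and -0.43 ± 0.15 in dim arrays (adjusted p = 0.42).

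The difference between these values was 1.63 ± 0.22 (limma, adjusted p = 0.043), and 0.0993% of all genes were higher and 0.0271% lower by that test. The same difference for PNX against SHAM was 1.03 ± 0.22 (adjusted p = 0.69), and 0 members and 0% of all genes passed there or for PNX-dnFGFR against PNX. The call on Elovl6 was lost without any 1 PNX-dnFGFR, SHAM or dim PNX array (1.504 to 1.75, adjusted p up to 0.18), and kept without either bright PNX array. Its 2 other probe sets gave smaller contrasts: for PNX-dnFGFR minus SHAM they had 0.54 and 1.08 in bright and 0.01 and 0.06 in dim arrays. Averaged over its probe sets the difference was 1.06 (adjusted p = 0.11), and with the second it was 0.53 (0.7). With bright and dim arrays of the same condition and number paired as a block, the adjusted p was 0.073. Over all 3 conditions Elovl6 was lower in bright than in dim arrays by -0.48 ± 0.09 (adjusted p = 0.0016), although the subsets overlapped and bright lay above dim in PNX-dnFGFR samples.

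The sterol and fatty acid branches were then set side by side by array. For each array the members' log2 signals, each minus the gene's own mean over the 12 arrays, were averaged within a branch. For the 14 sterol enzymes this was 0.09 and 0.08 in bright PNX-dnFGFR, -0.11 and 0.18 in bright PNX and -0.40 and -0.59 in bright SHAM arrays. In dim arrays it was 0.11 and 0.29 in PNX-dnFGFR, 0.16 and 0.46 in PNX and -0.16 and -0.10 in SHAM samples. The SHAM arrays were the lowest in each subset.

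For the 9 fatty acid enzymes it was 0.04 and 0.10 in bright PNX-dnFGFR, 0.15 and 0.06 in bright PNX and -0.18 and -0.15 in bright SHAM arrays. The dim values were 0.11 and -0.14 in PNX-dnFGFR, 0.22 and -0.18 in PNX and 0.12 and -0.14 in SHAM samples, where all 3 groups overlapped. Without Scd1, left out after its values were seen, the dim values were 0.09 and 0.09 in PNX-dnFGFR, 0.20 and 0.10 in PNX and 4e-04 and -0.03 in SHAM samples, and SHAM was the lowest there as well. The sterol mean minus the fatty acid mean was 0.05 and -0.02 in bright PNX-dnFGFR, -0.26 and 0.12 in bright PNX and -0.22 and -0.43 in bright SHAM arrays. In dim arrays that difference was 9e-04 and 0.42 in PNX-dnFGFR, -0.06 and 0.64 in PNX and -0.27 and 0.04 in SHAM samples. The PNX and SHAM arrays overlapped in this difference in both subsets. Without Scd1 it was 0.14 and 0.04 in bright PNX-dnFGFR, -0.15 and 0.14 in bright PNX and -0.19 and -0.30 in bright SHAM arrays. In dim arrays it was then 0.02 and 0.20 in PNX-dnFGFR, -0.05 and 0.36 in PNX and -0.16 and -0.07 in SHAM samples. So computed, both pneumonectomy groups lay above SHAM in each subset without overlap. The nearest arrays, dim PNX replicate 1 and dim SHAM replicate 2, were at -0.05 and -0.07. Whether the arrays overlapped thus changed with this 1 gene, left out after its values were seen. Leaving out other genes was not tried, so whether the branches differ was not settled. No test was run on these branch means.

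**Figure D5:**
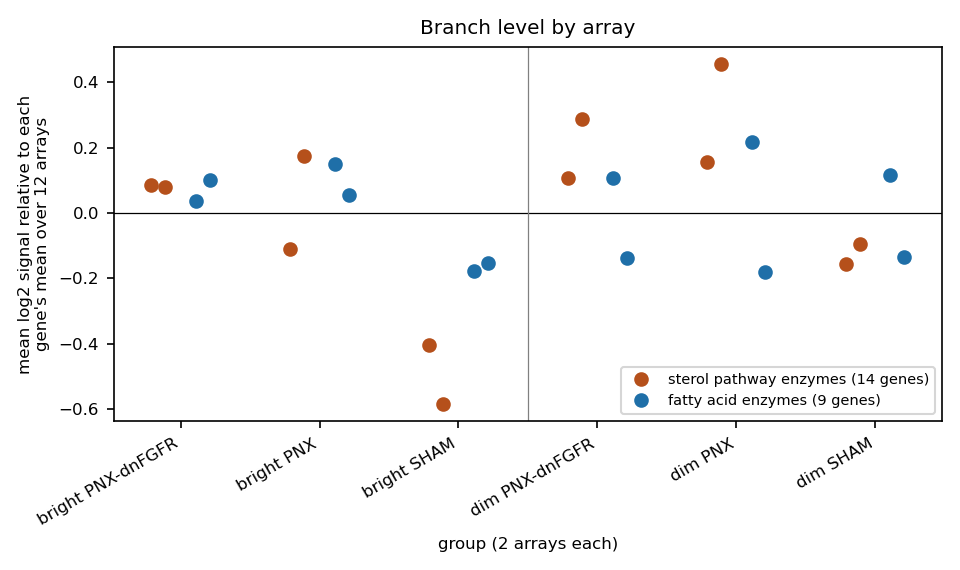
Mean log2 signal of the 14 sterol enzymes (brown) and the 9 fatty acid enzymes (blue), each gene relative to its own mean over the 12 arrays, on each array (points, 2 a group). The sterol points of bright SHAM, -0.40 and -0.59, are the lowest of all, and the fatty acid points overlap between the 3 dim groups.

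Scd1, the desaturase that makes oleate, was singled out after its values were seen because its arrays spread more than those of any other member tested. It had 8.89 and 8.76 in bright PNX-dnFGFR, 9.18 and 8.38 in bright PNX and 8.23 and 9.07 in bright SHAM arrays. On dim arrays it had 8.41 and 6.22 in PNX-dnFGFR, 8.47 and 5.74 in PNX and 9.20 and 7.16 in SHAM samples. In every dim group 1 array was near the bright level and the other was below every bright array, and in each group the lower one was replicate 2. The difference between bright and dim, 1.22 ± 0.57, did not pass (adjusted p = 0.11).

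Type 2 epithelial markers were lower on the same dim arrays, by differing amounts. Sftpc differed less than the genes given next, with 12.02 and 11.79 in dim PNX-dnFGFR, 12.28 and 11.58 in dim PNX and 12.43 and 12.13 in dim SHAM arrays. Lower signals there were not particular to type 2 markers: the macrophage marker Marco was lower on these arrays too, while other macrophage markers went both ways. Sftpa1, a surfactant protein gene, had 9.85 and 9.22 in dim PNX-dnFGFR, 10.80 and 9.10 in dim PNX and 11.25 and 9.89 in dim SHAM arrays. Sftpd, another, had 7.69 and 6.95 in dim PNX-dnFGFR, 8.76 and 7.54 in dim PNX and 9.25 and 7.66 in dim SHAM arrays. The log2 of the summed signal of all 10 type 2 markers ranged from 12.21 to 12.58 in dim PNX-dnFGFR, 12.09 to 13.049 in dim PNX and 12.65 to 13.26 in dim SHAM arrays. Their part in the spread of Scd1 was not tested.

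Genes that work beside these pathways were tabulated from lists chosen by function. None of these lists had a member past the test in PNX against SHAM as the mean over both subsets, by limma. Of all genes 0.0722% rose and 0.0722% fell there, so a list without a call says little. In the list of oxysterol sensing and sterol export, Ch25h differed by 1.41 ± 0.28 without passing (adjusted p = 0.09). The rest of that list lay between -0.76 (Abcg1) and 0.41 (Cyp7b1). Between bright and dim arrays, where 28.5% of all genes were higher and 19.3% lower, a count near these shares says nothing of a list. Among 8 genes of oxysterol sensing and sterol export, 4 were higher and 2 lower in bright arrays. Nr1h3, the oxysterol receptor LXR alpha, was lower by -1.53 ± 0.12 (adjusted p = 7.9e-06), and Cyp27a1, a sterol hydroxylase, by -1.26 ± 0.14 (8.8e-05). Cyp7b1, an oxysterol hydroxylase, was higher by 1.26 ± 0.24 (0.0022) and the transporter gene Abcg4 by 0.36 ± 0.08 (0.0049). In bright PNX-dnFGFR against bright SHAM arrays Cyp27a1 fell by 1.39 ± 0.25 (adjusted p = 0.021) and Abcg4 fell by 0.58 ± 0.14 (0.047). There 0 of the 8 rose, while 2.6% of all genes rose and 2.6% fell.

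Of 11 genes of sterol uptake, trafficking and esterification, 4 were higher and 3 lower in bright arrays, again beside 28.5% and 19.3% of all genes. Scarb1, the receptor of high-density lipoprotein, was higher by 1.31 ± 0.17 (adjusted p = 0.00019) and Gramd1b, a sterol transfer protein gene, by 0.81 ± 0.10 (0.00015). Npc1, which exports cholesterol from lysosomes, was lower by -0.55 ± 0.12 (0.0043), and Stard3, a sterol transfer protein gene, by -0.39 ± 0.11 (0.013). Among 7 genes of SREBP processing and turnover 1 was higher, Fbxw7 (0.28 ± 0.09, 0.031), and 1 lower, Rnf139 (-0.39 ± 0.08, 0.0031), both of which encode parts of ubiquitin ligases. Of 7 isoprenoid branch genes 0 were higher and 1 lower, Dolk, the dolichol kinase (-0.34 ± 0.11, 0.034).

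Of 8 genes that supply NADPH and citrate or promote lipogenesis, 2 were higher and 2 lower in bright arrays, close to the 28.5% and 19.3% of all genes. Me1, the malic enzyme that makes NADPH, was higher by 1.15 ± 0.13 (adjusted p = 9.5e-05) and Idh1, an isocitrate dehydrogenase gene, by 0.36 ± 0.12 (0.04). Thrsp and Mid1ip1, related genes whose products promote fatty acid synthesis, were lower by -0.68 ± 0.16 (0.0071) and -0.49 ± 0.07 (0.00047). Among 8 acyl-CoA synthetase and other elongation genes 3 were higher and 3 lower, with the synthetase gene Acsl4 at 0.98 ± 0.15 (7e-04), Acsl5 at 0.63 ± 0.10 (0.00088), Fads3 at -0.77 ± 0.08 (6.6e-05) and Tecr at -0.43 ± 0.07 (0.00083). Acsl4 also rose in bright PNX-dnFGFR against bright SHAM arrays, by 1.62 ± 0.27 (adjusted p = 0.017). Of 12 fatty acid oxidation genes 4 were higher and 2 lower, among them Cpt1c (0.66 ± 0.09, 0.00024) and Slc25a20 (0.37 ± 0.09, 0.01), and Hadh (-0.67 ± 0.09, 0.00033) and Acadm (-0.36 ± 0.08, 0.0058). Genes passed in both directions between the subsets in each of these 7 lists but the isoprenoid one.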

How the data were processed

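Gene expression of 12 sorted cell samples was measured on mouse arrays. The deposited values are log2 signals per probe set, made by the authors with RMA per the submitters' processing notes, and the sources used here give neither its version nor its options. They ran from 1.5 to 13.05, with array medians of 5.06 to 5.13. Of 45141 probe sets, 104 were controls, 28898 had 1 gene in the platform annotation, 551 several and 15588 none; 28689 symbols were updated through RefSeq. The number of arrays, 2 a group, limits the precision.

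The brightest probe set on average stood for each of 17097 genes, and 11073 genes above the filter on at least 2 arrays were tested. All 6 groups entered one linear model (limma 3.58.1, R 4.3.3), which left 6 residual degrees of freedom beside 3.31 prior ones and a median residual SD of 0.199, with 16 contrasts and Benjamini-Hochberg adjustment over all genes tested at a threshold of 0.05. The code was tested on simulated data. The named genes are members that passed in a comparison, the 2 of each role with the highest mean level and, of the other lists, up to 4 with the smallest adjusted p. Acaca, Fasn and Scd1 were given by array, and Abcg1 and Ch25h were named, after their values were seen. The members and all lists were chosen with earlier results of these data known. Alternatives were a stricter filter (6.762, the 75th percentile), no filter, further quantile normalization, other probe sets, a variance trend, only the groups compared, replicate blocks, values held at the filter, and leaving out each array.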

Additional observations from a re-analysis of the deposited data

Results flagged for a closer look

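Elovl6 drew attention because its difference between PNX-dnFGFR and SHAM arrays differed between the subsets by a test of that difference, 1.63 on the log2 scale (limma, adjusted p = 0.043). PNX-dnFGFR lay above SHAM in bright arrays and below it in dim arrays, without overlap in either subset. The call was lost with the mean of its probe sets, with the second probe set, with the block of condition and number, and without any 1 of 10 arrays.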

How the results depend on the processing

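Of 890 alternative values for 42 gene results, 727 kept direction and side of the threshold, 161 kept only the direction, and 2 reversed with the second probe set: Cyp51, bright minus dim over the 3 conditions (-9e-04, adjusted p = 1), and Msmo1 in PNX-dnFGFR samples (0.54, adjusted p = 0.095). For members with 1 named probe set, the second probe set and the mean of probe sets are the same signal again. These alternatives are part of the 890. Under the stricter filter 31 of the 42 results were tested, and the rest are not counted there. Beyond this, the cause of the changes given here was not tested. Between bright and dim arrays, the 4 members called in SHAM became 7 with a variance trend and 2 with only the groups compared. The 6 in PNX became 3 with the second probe set and 2 with only the groups compared. The 8 in PNX-dnFGFR became 5 with the stricter filter and 5 with the second probe set. Of these 8, Idi1, Msmo1 and Acss2 exceeded the stricter filter on fewer than 2 arrays, so they were not tested under it. For PNX against SHAM, over both subsets, the 1 member called became 4 with the mean of probe sets, 2 with the second probe set and 0 with only the groups compared. For PNX-dnFGFR against SHAM, over both subsets, the 3 became 1 with the second probe set and 5 each with the stricter filter, a variance trend, only the groups compared and values held at the filter. The 1 called for the difference between subsets became 0 with the mean of probe sets, the second probe set or the block of condition and number. Leaving out each array gave 11 to 15 members between bright and dim over the 3 conditions, 3 to 5 in SHAM, 1 to 6 in PNX and 4 to 10 in PNX-dnFGFR. It gave 0 to 1 for PNX against SHAM, 1 to 6 for PNX-dnFGFR against SHAM over both subsets, 0 to 8 in bright arrays, and 0 to 1 for the difference between subsets. Replicate numbers were not taken as pairs, since not every pair of groups had a correlation of deviations above 0.1: it was 0.0034 to 0.128 between bright and dim and -0.0923 to 0.347 between conditions, with 0.288 and 0.347 for bright SHAM with bright PNX and bright PNX-dnFGFR, so some sharing by number was not excluded. With the number as a block, 14 members passed between bright and dim, 1 in PNX against SHAM, and 4 over both subsets and 7 in bright arrays in PNX-dnFGFR against SHAM. With 2 arrays a group, and with Hmgcs1 and Lss near background, small changes could not be measured.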
